A study of Mus musculus with 6 samples.

Results

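The mRNAs of 10 components of the mTOR pathway were compared between polyribosomes of NMDA-R-stimulated synaptoneurosomes and total RNA of unstimulated synaptoneurosomes. The genes were taken by their symbols from the deposited count table: Mtor, Mlst8, Deptor, Rptor, Rictor, Rheb, Tsc1, Tsc2, Rps6kb1 and Rps6kb2. They are 10 of the 21958 protein-coding genes in the table, and all 10 were among the 12255 genes that passed edgeR's filter on low counts. Of these, 9 had at least 10 counts in every library, and Rps6kb2 had 6 counts in its lowest library.

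Synaptoneurosomes, a filtered and centrifuged brain fraction enriched in pre- and postsynaptic compartments, were prepared from the hippocampus and neighbouring cortex of male FVB mice aged 6 to 8 weeks. In the polyribosome group (n = 3 libraries), the NMDA-type glutamate receptor (NMDA-R) was activated for 30 s with 50 µM NMDA and 10 µM glutamate, the antagonist APV was then added to 120 µM, and after 20 min at 37 °C the light and heavy polyribosomes were collected from a sucrose gradient. The total RNA group (n = 3 libraries) came from unstimulated synaptoneurosomes. By the study's methods such controls stayed on ice with cycloheximide, which arrests ribosomes on mRNA. The material of 6 mice was pooled and divided into aliquots for both groups. The polyribosome and total RNA libraries that share a number (1, 2 or 3) and a header in the table were taken as the same preparation. The methods do not state whether 6 mice served each preparation or all of them. The groups differed both in stimulation and in RNA fraction, and these cannot be told apart.

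mTOR is a protein kinase that couples growth factor, energy and amino acid signals to protein synthesis, and it works in a pair of complexes that share the kinase and mLST8. The first complex contains Raptor and phosphorylates the S6 kinases and the 4E-binding proteins at the cap of the mRNA. The second contains Rictor and phosphorylates Akt. The GTPase Rheb activates the first complex, and the tuberous sclerosis proteins Tsc1 and Tsc2 switch Rheb off. In neurons the pathway is known for its part in translation-dependent forms of synaptic plasticity.

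Because the measurement compares mRNAs on ribosomes with mRNAs in total RNA, the bases around the start codon of each mRNA are shown first, from the principal transcript of the Gencode vM21 annotation (GRCm38). Each line gives 12 bases before the start codon, the start codon in capitals and 9 bases after it, 5′ to 3′.
Mtor: cctcagggcaagATGcttgggacg
Mlst8: agccatcaaacaATGaataccacc
Deptor: gcggtcaggaacATGgaagagggc
Rptor: cctcctcccctgATGgagtcggag
Rictor: aaacccgtcaatATGgcggcgatc
Rheb: caggccaccaagATGcctcagtcc
Tsc1: ttgagtgagagaATGgcccagtta
Tsc2: gccctgcccaccATGgccaaacca
Rps6kb1: gggtccgggcccATGaggcgacga
Rps6kb2: accggcggggccATGgcggccgta
A purine 3 bases before the start codon and a G directly after it are the positions of the Kozak context to which the scanning ribosome is most sensitive. The purine was present in 8 of the 10 mRNAs, against 85.5% of 12192 tested genes with an ATG start, and the G in 6 of 10, against 52.8%. Both were present in Rictor, Deptor, Tsc1, Tsc2 and Rps6kb2. Rps6kb1 was the member with neither at the annotated start of its principal transcript, a state shared with 6.90% of the tested genes. Start codons further downstream in the same mRNA were not examined. Upstream of the start codon, the 5′UTR held 6 further ATG triplets in Mlst8, 4 in Tsc1 and 3 in Rheb. The 5′UTR of Rictor was annotated with 20 bases and that of Rptor with 661 bases, against a median of 191 bases.

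Rictor mRNA was lower on polyribosomes than in total RNA, and it was the single member past the threshold, which was set at 0.01 for the adjusted p (quasi-likelihood test of edgeR, with p adjusted after Benjamini and Hochberg over all 12255 genes). Its level on polyribosomes was 28.2 ± 4.23 CPM (SD, n = 3) against 55.5 ± 5.61 CPM in total RNA. Rps6kb1 had a log2 fold change of nearly the same size, but it did not pass. Among all genes tested, 2.36% were called lower and 0.710% higher. No member was called higher by edgeR, and none had an unadjusted p under 0.05 in that direction, against 15.4% of all genes. In the lower direction 2 members, Rictor and Rps6kb1, had an unadjusted p under 0.05, against 17.1% of all genes. DESeq2 called these 2 members lower and none higher, where it called 3.28% of all genes lower and 2.19% higher. The median log2 fold change of the 10 members was -0.11, and that of all genes tested was 0.00097.

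**Figure D1:**
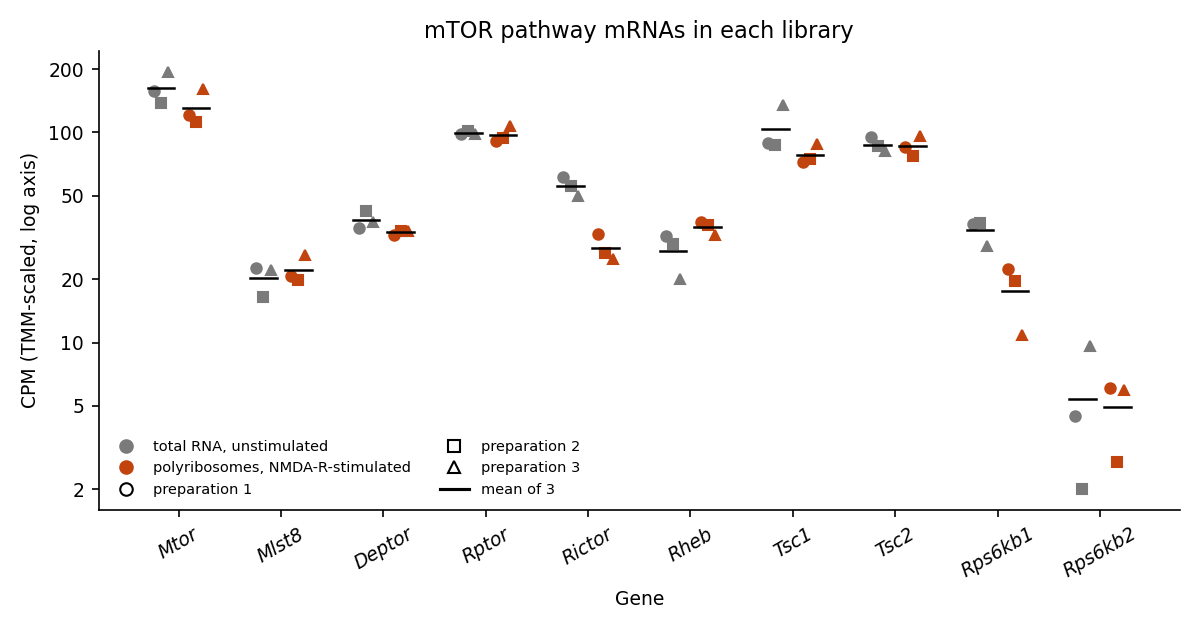
Level of each mTOR pathway mRNA in each library, in counts scaled to library size (CPM, TMM method, log axis). Grey symbols are total RNA, orange symbols are polyribosomes, the symbol shape marks the preparation, and bars are means of 3 libraries. Rictor and Rps6kb1 on polyribosomes lie below all their total RNA values, whereas Rptor and Tsc2 overlap.

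Levels are given as CPM, that is, counts scaled to a common library size with edgeR's TMM factors, and fold changes as log2 of polyribosomes over total RNA, with a standard error (SE) and a 95% interval from the fit. Library totals were 5294482 to 7361580 counts on polyribosomes and 1044955 to 3738022 in total RNA, and total RNA replicate 3 was the shallowest. In bulk RNA, fewer terminals or cells of a type and less RNA in each of them cannot be told apart.

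The kinase and its shared partners showed differences within the spread of the group-only fit. Mtor (chr4:148448611-148557683, GRCm38), which encodes the catalytic subunit of both complexes, was measured at 158, 137 and 195 CPM in total RNA replicates 1 to 3. On polyribosomes it was at 121, 112 and 161 CPM. The groups overlapped, because both values of preparation 3 were the highest of their group, but within each of the 3 preparations the polyribosome value was lower, with log2 differences of -0.39, -0.29 and -0.28. The fitted log2 fold change of Mtor was -0.30 (SE 0.19, 95% interval -0.71 to 0.10, adjusted p = 0.285, edgeR). With the replicate block the 95% interval of Mtor was -0.56 to -0.08 and lay below 0, but its adjusted p did not pass the threshold.

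Mlst8 (chr17:24473550-24479078), whose product binds the kinase domain in both complexes, ranged from 16.4 to 22.6 CPM in total RNA and from 19.9 to 26.1 CPM on polyribosomes. The groups overlapped, and the preparations differed in sign. Its log2 fold change was 0.13 (SE 0.20, 95% interval -0.30 to 0.57). Of the union of Mlst8 exons, 25.6% also lie in exons of Bricd5 on the opposite strand, and whether reads were counted by strand is not given in the sources used here, so Mlst8 counts are uncertain.

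Deptor (chr15:55112317-55259271), which encodes an inhibitory subunit of both complexes, was at 35.0, 42.2 and 37.4 CPM in total RNA and at 32.5, 33.9 and 34.0 CPM on polyribosomes. All polyribosome values were below all total RNA values, but the nearest of them were about 1 CPM apart. The log2 fold change was -0.19 (SE 0.17, 95% interval -0.56 to 0.17, adjusted p = 0.466, edgeR).

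The mRNAs of the subunits that define the complexes differed from each other. Rptor (chr11:119602905-119899576), the gene of Raptor, was at 98.6, 101 and 97.8 CPM in total RNA and at 90.8, 94.3 and 107 CPM on polyribosomes. The groups overlapped, with preparation 3 high on polyribosomes. Its log2 fold change was -0.03 (SE 0.16), and the 95% interval of -0.36 to 0.31 covers changes of about 0.3 in either direction.

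Rictor (chr15:6708381-6800398), the gene of a scaffold subunit of the second complex, was at 61.1, 55.6 and 49.9 CPM in total RNA. On polyribosomes it was at 33.0, 26.8 and 24.9 CPM. The highest polyribosome library was below the lowest total RNA library, and the order of the preparations was the same in both groups. The raw counts behind these levels were 246, 166 and 52 in total RNA and 244, 178 and 121 on polyribosomes. The fitted log2 fold change was -0.99 (SE 0.18, 95% interval -1.37 to -0.60, adjusted p = 0.00473, edgeR), which corresponds to a level 49.5% lower. Within preparations 1 to 3 the log2 differences were -0.88, -1.04 and -0.99.

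The call of Rictor depended on the libraries and on the model. With 1 library left out at a time the log2 fold change stayed between -1.12 and -0.91, and the call was kept in 3 of 6 fits. It was lost without polyribosome replicate 2 (adjusted p = 0.0259), without total RNA replicate 1 (adjusted p = 0.0365) and without total RNA replicate 2 (adjusted p = 0.0304), each in edgeR. With the preparation as a replicate block, adjusted p was 1.17e-08 in edgeR, from 3 pairs of libraries and a spread moderated across genes. Over all 13 alternatives the adjusted p of Rictor ranged from 1.17e-08 to 0.0640, and it passed the threshold in 9.

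For the switch upstream of the first complex, no member passed the threshold. Rheb (chr5:24802823-24842624), the activating GTPase, was at 32.0, 29.5 and 20.1 CPM in total RNA and at 37.3, 36.2 and 32.5 CPM on polyribosomes. It was the only member of the 10 whose polyribosome values all lay above its total RNA values, by a gap of under 1 CPM. The log2 fold change was 0.32 (SE 0.19, 95% interval -0.09 to 0.73, adjusted p = 0.265, edgeR). Preparation 3 differed most, by 0.68 log2 units, and its total RNA value rested on 21 counts. Without total RNA replicate 3, the log2 fold change of Rheb was 0.20.

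Tsc1 (chr2:28641228-28691167), which encodes the stabilizing subunit of the tuberous sclerosis complex, was at 88.6, 87.4 and 135 CPM in total RNA. On polyribosomes it was at 72.5, 75.0 and 87.9 CPM. The polyribosome value was lower in all 3 preparations, although the groups overlapped by under 1 CPM. The log2 fold change was -0.37 (SE 0.19, 95% interval -0.78 to 0.03, adjusted p = 0.186, edgeR), and without total RNA replicate 3, the highest library, it was -0.17.

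Tsc2 (chr17:24595937-24632629), the gene of the GTPase-activating subunit, was at 94.6, 86.1 and 81.5 CPM in total RNA and at 84.8, 77.1 and 96.6 CPM on polyribosomes. These groups overlapped throughout, and the log2 fold change was -0.03 (SE 0.16, 95% interval -0.38 to 0.32). Exons of Pkd1 on the opposite strand cover 10.9% of the Tsc2 exons.

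The S6 kinases, substrates of the first complex that phosphorylate ribosomal protein S6 and initiation factors, were unequal in level. Rps6kb1 (chr11:86498871-86544805) was at 36.8, 37.2 and 28.8 CPM in total RNA and at 22.5, 19.6 and 10.9 CPM on polyribosomes. The groups were separate, and preparation 3 was the lowest in both. The log2 fold change was -0.97 (SE 0.24, 95% interval -1.47 to -0.46, adjusted p = 0.0183, edgeR). The lowest libraries held few reads, with 30 counts in total RNA replicate 3 and 53 on polyribosome replicate 3. DESeq2 gave an adjusted p of 0.00868 and the fit with the replicate block 1.55e-06, both past the threshold, and the range over 13 alternatives was 1.55e-06 to 0.168, with 3 past it.

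Rps6kb2 (chr19:4156713-4163354), the gene of the second S6 kinase, was the least abundant member, at 2.01 to 9.59 CPM in total RNA and 2.71 to 6.09 CPM on polyribosomes. Its raw counts were 18, 6 and 10 in total RNA and 45, 18 and 29 on polyribosomes. The fitted log2 fold change was 0.17 (SE 0.45), whereas the ratio of the mean CPM was 0.919, so that no direction was given by these counts. Its 95% interval was -0.79 to 1.12, the widest of the members, and 20.2% of Rps6kb2 exons overlap Ptprcap on the opposite strand.

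**Figure D2:**
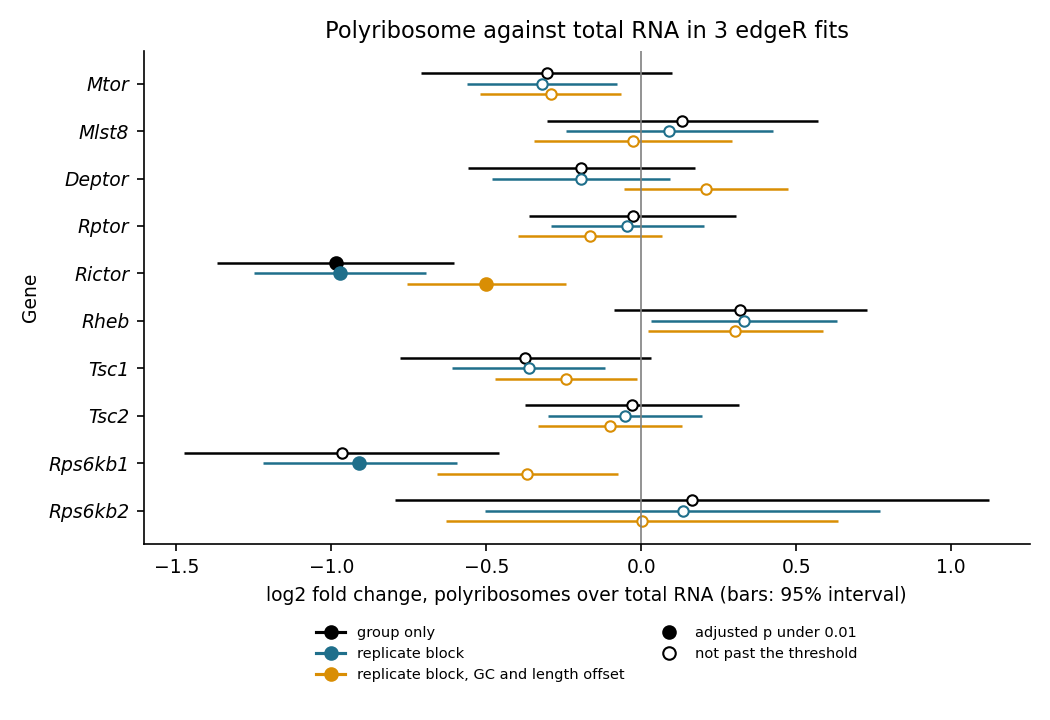
Log2 fold change of polyribosomes over total RNA for each mRNA in 3 edgeR fits (group only, with the preparation as replicate block, and with the block and a GC and length offset); bars are 95% intervals and filled symbols have an adjusted p under 0.01. Rictor is filled in all 3 fits, at -0.99, -0.97 and -0.50, and Rps6kb1 in the blocked fit only.

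The separation of the groups can be set beside that of other genes. Of the 10 members, 3 (Rictor, Rps6kb1 and Deptor) had all polyribosome values below all total RNA values and 1 (Rheb) had them above, while 18.9% and 17.4% of all genes tested did so. Within preparations, 5 members were lower on polyribosomes in all 3 and 1 was higher in all 3, against 30.6% and 30.2% of genes. The counts in the higher direction thus lay near or below those of all genes.

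The replicate block used the pairing of the libraries by preparation and narrowed the intervals. In that fit 13.2% of all genes were called lower and 11.8% higher, and 2 of the 10 members were called, both lower: Rictor, with a log2 fold change of -0.97 (SE 0.14), and Rps6kb1, with -0.91 (SE 0.16). The next members were Tsc1 (log2 fold change -0.36, adjusted p = 0.0152) and Mtor (log2 fold change -0.32, adjusted p = 0.0320) in edgeR. Neither passed the threshold in any of the 13 alternatives, where their adjusted p ranged from 0.0152 to 0.502 for Tsc1 and from 0.0320 to 0.594 for Mtor. Rheb had a log2 fold change of 0.33 with the block (adjusted p = 0.0772, edgeR; 0.0772 to 0.515 over the alternatives).

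The base composition of the transcripts moved with the fold changes. Rps6kb1 and Rictor have the most AT-rich mRNAs of the members, with a GC content of 39.2% and 42.5% over the principal transcript, against a median of 50.5% for the genes tested. They rank at percentiles 2.71 and 11.2 of all genes tested. Deptor had 44.3%, Rheb 47.1% and Tsc1 51.6%, and the remaining 5 members lay between 54.2% and 56.5%. The coding sequences of Rps6kb1 and Rictor had 46.6% and 45.7% GC, against a median of 53.1%, and their 3′UTRs less. Rheb had the lowest GC content of the members in its coding sequence, at 40.5%. The 3′UTR of Rictor is annotated with 4165 bases at 38.5% GC and that of Rps6kb1 with 3854 bases at 35.4%, whereas the median 3′UTR had 1147 bases. The longest 3′UTR among the members was that of Deptor, with 7136 bases.

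Across all genes, the median log2 fold change rose with GC content, from -0.43 in the lowest of 10 GC classes of equal size to 0.42 in the highest. The correlation of GC content with log2 fold change was r = 0.53 (Spearman's rho 0.54) across 12215 genes, and r = 0.69 (rho 0.64) across the 10 members, a description over genes that share the same libraries. In the lowest class, which holds Rps6kb1, 8.18% of genes were called lower, and in the second, which holds Rictor and Deptor, 5.57%. Within its class, Rictor lay at percentile 7.13 of the log2 fold changes and Rps6kb1 at 13.4. Rheb lay at percentile 86.7 of its class and Deptor at 57.7, and Mtor, in a class of higher GC content, at 13.5. Tsc1 lay at percentile 17.2, Rptor at 21.9, Tsc2 at 27.3, Mlst8 at 42.3 and Rps6kb2 at 46.3 of their classes.

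**Figure D3:**
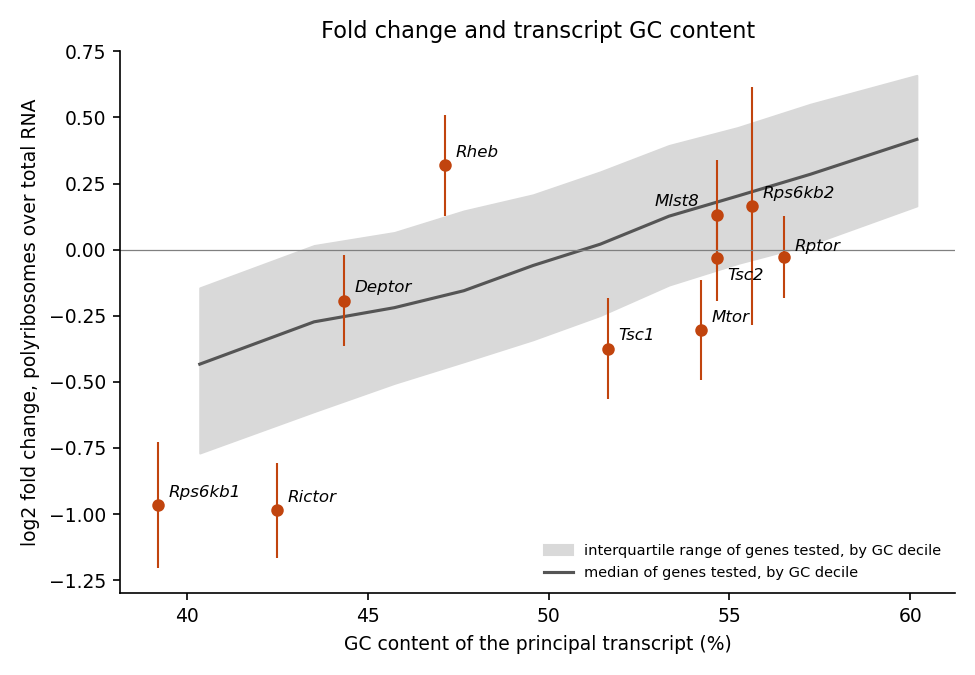
Log2 fold change of polyribosomes over total RNA against the GC content (%) of the principal transcript. Orange points are the 10 mTOR pathway mRNAs with SE bars, and the grey line and band are the median and the interquartile range of all genes tested in 10 GC classes. Rps6kb1, Rictor, Tsc1, Mtor and Rptor lie below the band, and Rheb lies above it.

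With an offset for transcript length and GC content, the differences of both AT-rich mRNAs were smaller by about 0.5 log2 units. In the fit with the block and the offset, where 6.96% of genes were called lower and 9.07% higher, Rictor had a log2 fold change of -0.50 (SE 0.13, adjusted p = 0.00136, edgeR) and was the single member called. Rps6kb1 had -0.37 (SE 0.15, adjusted p = 0.0519, edgeR). With the offset and no block, where 0.751% of genes were called lower and 0.253% higher, Rictor had -0.49 (adjusted p = 0.0640, edgeR) and Rps6kb1 -0.40 (adjusted p = 0.168, edgeR), and neither passed. Deptor, also AT-rich, had a log2 fold change of 0.21 with both terms, so that its sign depended on the offset. The offset moved Rheb little, from 0.33 to 0.30 in the blocked fits. Whether the relation with GC content arose in the libraries or in the fraction was not tested.

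Levels per kilobase of exon were compared within each group. In total RNA, Mtor was at 18.6 ± 3.31 CPM per kb (SD, n = 3), Rheb at 15.3 ± 3.51, Rptor at 15.0 ± 0.264, Tsc2 at 13.8 ± 1.05 and Tsc1 at 13.4 ± 3.52, and no neighbours in this order were separated by more than their ranges. A gap followed. Rictor, Mlst8, Deptor and Rps6kb1 lay at 5.96 to 4.27 CPM per kb with overlapping ranges between neighbours, and Rps6kb2 was at 1.17 ± 0.843, below all of them. Per kilobase, the Raptor mRNA thus exceeded the Rictor mRNA in every total RNA library.

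On polyribosomes the order per kilobase was led by Rheb, at 19.8 ± 1.40 CPM per kb, followed by Mtor at 15.0 ± 2.94, Rptor at 14.8 ± 1.32 and Tsc2 at 13.6 ± 1.54, again with overlapping ranges between neighbours. Tsc1, at 10.1 ± 1.07, was below this group without overlap. Rictor was at 3.03 ± 0.455 and had moved below Mlst8 and Deptor, and its range overlapped that of Rps6kb1, at 2.20 ± 0.749. Rps6kb2 remained the lowest, at 1.07 ± 0.418.

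Ratios within a library do not depend on library scaling. For 3 of them an exact two-sided permutation test was run over the libraries, in which 3 against 3 cannot give a p below 0.1. That test does not use the pairing of the libraries. Permuted within the 3 pairs, each of the 3 ratios gave p = 0.25 (exact permutation test), the smallest possible there. The log2 ratio of Rptor to Rictor counts was 1.79 ± 0.32 on polyribosomes and 0.84 ± 0.14 in total RNA (SD, n = 3 each). The difference of 0.95 was positive in all 3 preparations, at 0.77, 0.95 and 1.14. Without the pairing it gave the smallest p possible, 0.1 (exact permutation test; 0.3 after Benjamini-Hochberg adjustment over the 3 ratios). The ratios were not adjusted for GC content, which was 56.5% for Rptor and 42.5% for Rictor. In the blocked fit with the GC and length offset, the log2 fold changes were -0.16 for Rptor and -0.50 for Rictor. The log2 ratio of Tsc1 to Tsc2 was -0.13 ± 0.09 on polyribosomes and 0.22 ± 0.44 in total RNA (exact permutation p = 0.2, adjusted 0.3), where preparation 3 made most of the difference. The log2 ratio of Rps6kb1 to Rps6kb2 was 1.85 ± 0.98 on polyribosomes and 2.88 ± 1.29 in total RNA, a difference of -1.03 (exact permutation p = 0.4, adjusted 0.4). GC content was 39.2% for Rps6kb1 and 55.6% for Rps6kb2. Their log2 fold changes in the blocked fit with the offset were -0.37 and 0.0023.

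The wider pathway was described with 5 lists of companion genes, of which 104 of 106 distinct genes were tested. Among them 1 was called higher and none lower, where 0.710% and 2.36% of all genes tested were called. The called gene was Akt1s1, which encodes PRAS40, an inhibitory subunit of the first complex and a substrate of Akt. It was at 9.68, 13.7 and 10.5 CPM in total RNA and at 21.0, 22.9 and 24.5 CPM on polyribosomes. The groups did not overlap, as was so for 17.4% of all genes tested in that direction. The log2 fold change of Akt1s1 was 1.00 (SE 0.21, adjusted p = 0.00937, edgeR), close to the threshold. Without any single library the log2 fold change of Akt1s1 was 0.83 to 1.19 and the call was lost, with adjusted p from 0.0136 to 0.0853. Its transcript is GC-rich (63.3%), and with the block and the GC and length offset the log2 fold change was 0.48 (adjusted p = 0.0434, edgeR; 1.42e-05 to 0.150 over the alternatives).

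Of the 8 complex partners and assembly factors, Akt1s1 was the single one called. At an unadjusted p under 0.05 there were none in the lower and 2 in the higher direction (17.1% and 15.4% of all genes). DESeq2 called none lower and 1 higher (3.28% and 2.19% of all genes). With the replicate block none was called lower and 2 higher, beside 13.2% and 11.8% of all genes. Their median log2 fold change was -0.10. Mapkap1, which encodes mSIN1, a partner of Rictor in the second complex, had 36.6 ± 7.45 CPM on polyribosomes against 40.5 ± 6.26 in total RNA (SD, n = 3), with a log2 fold change of -0.11 (SE 0.20).

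In the list of amino acid sensing at the lysosome, all 29 genes were tested and none was called by edgeR or DESeq2, while 6 had an unadjusted p under 0.05 in the lower and 2 in the higher direction, where all genes gave 17.1% and 15.4%. The median log2 fold change was -0.10. Fnip1, which encodes a partner of folliculin, had 20.2 ± 6.70 CPM on polyribosomes against 32.9 ± 2.04 in total RNA, with a log2 fold change of -0.70 (SE 0.23, adjusted p = 0.0518, edgeR). The Fnip1 transcript is AT-rich (38.9% GC), and with the block and the offset its log2 fold change was -0.13 (adjusted p = 0.573, edgeR; 6.19e-04 to 0.606 over the alternatives). Depdc5, a subunit of the GATOR1 complex that restrains the first complex when amino acids are low, had a log2 fold change of -0.46 (SE 0.18), or -0.26 with the block and the offset. With the replicate block, 5 genes of this list were called lower and none higher, beside 13.2% and 11.8% of all genes. With the block and the offset 3 were called lower and 1 higher, beside 6.96% and 9.07%.

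Among 29 upstream kinases, phosphatases and receptors, edgeR called none, with 9 at an unadjusted p under 0.05 in the lower and 2 in the higher direction (17.1% and 15.4% of all genes). DESeq2 called 3 lower and 1 higher (3.28% and 2.19% of all genes). The median log2 fold change was -0.12. Prkaa2, the catalytic α2 subunit of the energy-sensing kinase AMPK, had a log2 fold change of -0.96 (SE 0.23, adjusted p = 0.0171, edgeR), with 25.4 ± 7.05 CPM on polyribosomes and 51.7 ± 13.3 in total RNA. Rps6ka3, the gene of the kinase RSK2, had -0.91 (SE 0.21, adjusted p = 0.0144, edgeR). Both transcripts are AT-rich (40.7% and 40.5% GC), and with the block and the offset the log2 fold changes were -0.38 for Prkaa2 (adjusted p = 0.0239, edgeR; 8.67e-07 to 0.177 over the alternatives) and -0.37 for Rps6ka3 (adjusted p = 0.0366, edgeR; 1.19e-06 to 0.146). With the replicate block 9 genes of this list were called lower and 2 higher, beside 13.2% and 11.8% of all genes, and with the block and the offset 3 and 3, beside 6.96% and 9.07%.

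**Figure D4:**
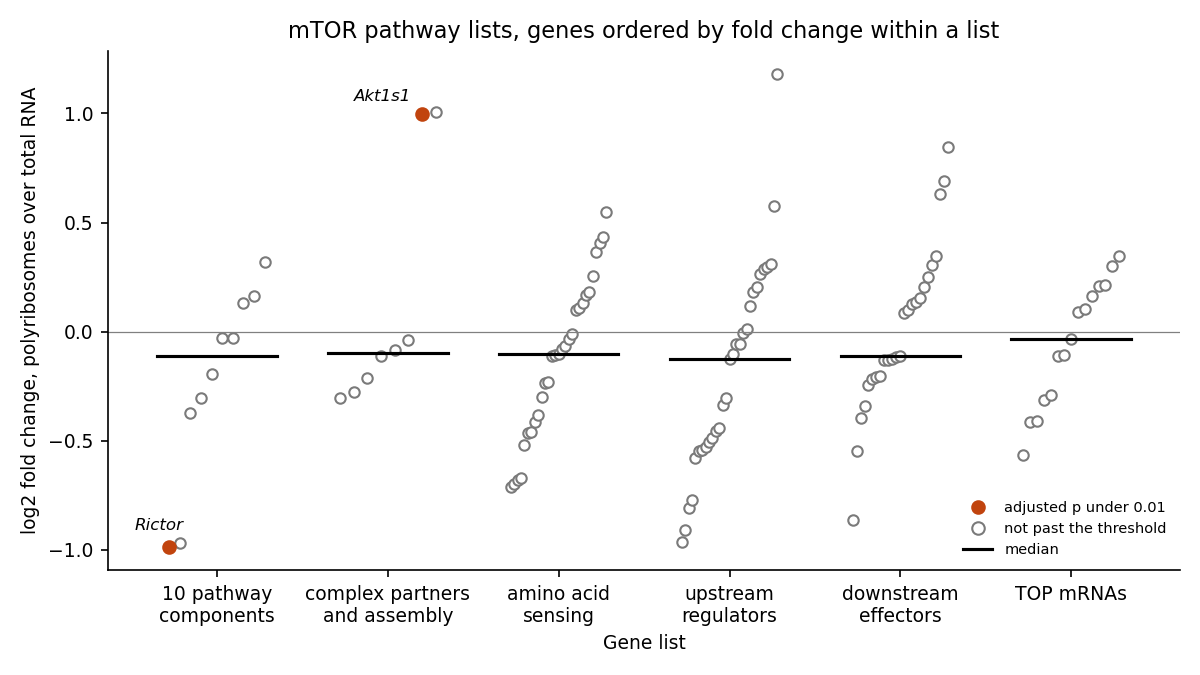
Log2 fold change of polyribosomes over total RNA for each tested gene of the 10 mTOR pathway components and of 5 companion lists, ordered within a list. TOP stands for terminal oligopyrimidine, and the TOP list leaves out ribosomal protein mRNAs. Bars are list medians, and filled points have an adjusted p under 0.01. Rictor and Akt1s1 are the filled points, and the list medians lie between -0.12 and -0.03.

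Downstream, 25 of 27 substrates and effectors were tested, since Eif4ebp1 and Eif4ebp3, which encode 4E-binding proteins, did not pass the filter on low counts. None was called by edgeR, 3 had an unadjusted p under 0.05 in each direction (17.1% of all genes lower, 15.4% higher), and DESeq2 called 1 lower and none higher (3.28% and 2.19%). The median log2 fold change was -0.11. Rb1cc1, which encodes FIP200, a subunit of the autophagy-initiating kinase complex, had 44.3 ± 10.0 CPM on polyribosomes against 81.1 ± 5.28 in total RNA, with a log2 fold change of -0.86 (SE 0.19, adjusted p = 0.0110, edgeR). Its transcript has 39.1% GC, and with the block and the offset the log2 fold change of Rb1cc1 was -0.28 (adjusted p = 0.0699, edgeR; 1.38e-07 to 0.218 over the alternatives). Srebf1, a transcription factor of lipid synthesis, had 0.69 (SE 0.22, adjusted p = 0.0509, edgeR), and Ndrg1, a target phosphorylated through the second complex by SGK1, had 0.63 (SE 0.28, adjusted p = 0.133, edgeR). With the block and the offset both were called higher, at log2 fold changes of 0.40 and 0.41. Of the Ndrg1 exons, 14.5% also lie in exons of Gm17035 and 4.74% in those of Gm2895, both on the opposite strand. With the block 2 genes of this list were called lower and 2 higher, beside 13.2% and 11.8% of all genes. With the block and the offset none was called lower and 2 higher, beside 6.96% and 9.07% of all genes.

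The mRNAs with a 5′ terminal oligopyrimidine tract are known to depend on the first complex for their translation. The list held 15 of them and left out the mRNAs of ribosomal proteins. None of the 15 was called in edgeR or DESeq2. At an unadjusted p under 0.05 there were 3 in the lower and none in the higher direction, where all genes gave 17.1% and 15.4%. The median log2 fold change of these 15 was -0.03. Eef2, elongation factor 2, had 1968 ± 465 CPM on polyribosomes against 1548 ± 320 in total RNA, with a log2 fold change of 0.35 (SE 0.21). Pabpc1, the poly(A)-binding protein, had -0.41 (SE 0.18), and Nap1l1, a histone chaperone, had -0.41 (SE 0.17). The sign of Nap1l1 (39.8% GC) turned with the block and the offset, to 0.029, and that fit gave 0.12 for Eef2 (57.0% GC). With the block 3 genes of this list were called lower and none higher, beside 13.2% and 11.8% of all genes.

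Markers of other cell types were compared between the groups, and most had positive log2 fold changes. All 11 astrocyte markers had positive log2 fold changes (median 0.54), and their summed level was 52450 to 58500 CPM on polyribosomes against 40300 to 45810 CPM in total RNA. The medians were 0.48 for 10 oligodendrocyte markers, with sums of 11250 to 15100 against 8095 to 11220 CPM, 0.36 for 10 microglia markers, with 1033 to 1203 against 666 to 942 CPM, and 0.34 for 8 endothelial markers, with 313 to 573 against 330 to 360 CPM. The 10 markers of neurons and synapses, none of them at 0 in any library, had a median of 0.04, with sums of 12300 to 14890 CPM on polyribosomes and 11390 to 13220 CPM in total RNA. The part of these cells in the values of the pathway mRNAs was not tested.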

How the data were processed

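Synaptoneurosomal RNA was sequenced in 6 libraries. After ribosomal RNA depletion, the authors aligned reads to GRCm38 with STAR (version 2.5.2b in the submitters' processing notes) and counted reads per gene of the Gencode vM6 basic set. The kit named in the labels does not mark strand by itself, but the study's methods modified it to give strand-specific libraries. Whether reads were counted by strand is not given, so overlapping genes are uncertain. The deposited counts are whole numbers and were not normalized. Columns of the authors' DESeq2 comparison (deposited mean normalized signal, log2 fold change, Wald score and p-value, with its adjustment) were not used. The members and lists were chosen with earlier results of these data known.

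Counts were analysed with edgeR 4.0.16 in R 4.3.3 (TMM, filterByExpr, quasi-likelihood test, group only). The Benjamini-Hochberg adjustment ran over 12255 genes, with a threshold of 0.01. SEs were derived from the test statistic. Alternatives were DESeq2 1.42.0, other scalings and filters, a block for the replicate number, a GC and length offset (loess, span 0.3, Gencode vM21) and leaving out each library. Ratios used a pseudocount of 0.5. Same-numbered libraries share a number and a header in the labels, and after subtraction of the group means they correlated at 0.37, 0.26 and 0.38, so they were paired. Replicates differed by more than sampling noise. The p-values of edgeR rest on the spread between libraries from 3 preparations. In these fits the spread of each gene was moderated by that of all genes. The group-only fit does not use the pairing, and the small p-values of the blocked fits rest on 3 pairs. The code was tested on simulated data. All members were named, and from each list the called genes, filled to 3 with those of largest change at a mean normalized count of at least 100; some genes that this rule names are not reported here. Total counts were 1044955 to 7361580 per library.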

Additional observations from a re-analysis of the deposited data

How the results depend on the processing

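Scaling by total counts moved the median of all genes to -0.11, and the medians to -0.22 for the 10 members, -0.21 for amino acid sensing and -0.14 for terminal oligopyrimidine mRNAs. Of 87 genes higher and 289 lower on polyribosomes, DESeq2 gave 268 higher, total counts 42 higher, no filter 476 and 566, the replicate block 1441 and 1622, the GC and length offset 31 and 92, and the block with the offset 1112 and 853. Among all genes tested, the shares called lower and higher were 2.36% and 0.710% in the group-only fit and 3.28% and 2.19% with DESeq2. They were 13.2% and 11.8% with the block, 0.751% and 0.253% with the offset, and 6.96% and 9.07% with both terms. The fit without the filter covered more genes, and its shares are not given. The counts of calls that follow join both directions. Against 1 member called, DESeq2, no filter and the replicate block each gave 2, and the offset 0. For complex partners (1 called), no filter and the block gave 2, and total counts, the offset and the block with the offset 0. For amino acid sensing (0 called), the block gave 5, the offset 1 and both 4. For upstream regulators (0 called), DESeq2 and no filter gave 4, the block 11 and both terms 6. For downstream effectors (0 called), DESeq2, total counts and no filter gave 1, the block 4, and both terms 2 with a median of 0.022. For terminal oligopyrimidine mRNAs (0 called), the block gave 3 and both terms 1, and no filter a median of -0.0082.

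Without 1 library at a time, 0 to 61 genes were higher and 22 to 208 lower, 0 to 1 member passed and the members' median was -0.19 to -0.10. The lists gave 0 to 1 call for upstream regulators and 0 for the others, with medians of -0.19 to -0.031 for complex partners, -0.18 to -0.025 for amino acid sensing, -0.18 to -0.094 for upstream regulators, -0.11 to -0.011 for downstream effectors and -0.075 to 0.027 for terminal oligopyrimidine mRNAs. The sign turned for Rptor without polyribosome replicate 1 (0.021), Mlst8 with the block and the offset (-0.026) and without total RNA replicate 2 (-0.016), Tsc2 without polyribosome replicate 2 (0.048) and without total RNA replicate 1 (0.024), Deptor with the offset (0.24) and with both terms (0.21), and Rps6kb2 without polyribosome replicate 1 (-0.065) and without total RNA replicate 2 (-0.27), and the cause was not tested. Over the fits without 1 library, the log2 fold change ranged from -0.098 to 0.021 for Rptor, -0.016 to 0.25 for Mlst8, -0.12 to 0.048 for Tsc2 and -0.27 to 0.53 for Rps6kb2. Of 130 values of single members under the alternatives, 114 kept direction and side of the threshold. The block changed no other call of a member than that of Rps6kb1. The ratio differences ranged over -1.70 to -0.42 for Rps6kb1 to Rps6kb2, -0.51 to -0.10 for Tsc1 to Tsc2 and 0.80 to 1.12 for Rptor to Rictor. In total RNA replicate 3, the shallowest library, Rps6kb2 had 10 counts, Rheb 21, Mlst8 23 and Rps6kb1 30.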

Other observations

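Several companion genes outside the rule for named genes were singled out after their values were seen. AMPK is built of α, β and γ subunits, and all 6 of its listed genes were tested. Besides Prkaa2, the log2 fold changes were -0.77 for Prkab2, -0.58 for Prkag2 and -0.55 for Prkaa1, whereas Prkab1 had 0.21 and Prkag1 0.29. Exons of B130046B21Rik on the opposite strand cover 44.25% of the Prkag1 exons, so Prkag1 counts are uncertain. With the replicate block, Prkaa2, Prkab2 and Prkag2 were called lower, and with the block and the GC and length offset Prkag2 kept its call (adjusted p = 0.00496, edgeR). Of all genes, 13.2% were called lower with the block and 6.96% with both terms. The GC content was 40.15% for Prkaa1, 40.7% for Prkaa2, 46.8% for Prkab2 and 50.1% for Prkag2. It was 52.8% for Prkag1 and 55% for Prkab1. With both terms the log2 fold change of Prkaa1 was -0.12.

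Of the genes of the GATOR2 complex, which signals that amino acids are present, Mios and Wdr59 had log2 fold changes of -0.71 and -0.67 and were called lower with the replicate block, while Wdr24 (-0.11), Seh1l (-0.11) and Sec13 (0.41) were not. With the block and the offset Wdr59 was called (-0.65, adjusted p = 0.00111, edgeR) and Mios was not (-0.38). Fnip2, a paralog of Fnip1, had -0.68 and was called lower with the block and with the block and the offset. In these fits 13.2% and 6.96% of all genes were called lower.

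Ddit4, which encodes the stress-induced mTOR inhibitor REDD1, had the largest log2 fold change of the upstream list, 1.18 (adjusted p = 0.0238, edgeR), with 29.1 ± 11.7 CPM on polyribosomes and 13.5 ± 3.48 in total RNA (SD, n = 3). It was called higher with the replicate block and also with the block and the offset, at a log2 fold change of 0.73. Prr5, the gene of a Rictor partner also called Protor-1, had 1.01 (adjusted p = 0.0235, edgeR) and was called higher with the block. Once the offset was added, its log2 fold change was 0.51 and was not called. Of all genes, 11.8% were called higher with the block and 9.07% with both terms.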
